A study of Mus musculus with 19 samples.

Results

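The cytosolic ribosomal protein genes encode the protein components of the ribosomes that translate nuclear messenger RNA. They were taken from the deposited table by name: every gene symbol that begins with Rpl or Rps and a number, plus Rplp0, Rplp1, Rplp2 and Rpsa, leaving out pseudogene names ending in -ps and the Rps6k kinases. This gave 91 of 24844 genes. Of these, 77 are canonical ribosomal proteins, 31 of the small (40S) and 46 of the large (60S) subunit. The other 14 are paralogs, retrogene or extra copies, and Rps19bp1, a protein that binds Rps19 and is no ribosomal protein itself. Left out were 205 pseudogene names and 9 kinases. All 91 members passed the filter on low values (an RPM, reads scaled to library size, of 1 or more in at least 4 libraries), as did 17013 genes in all.

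RNA of whole inguinal fat was sequenced from its 3' end in 19 mice, all C57BL/6JRj wild types, with 1 library per mouse. All mice were housed at 29 °C. Healthy mice (n = 4) had control AAV and PBS and no tumour cells. Tumour controls (n = 5) had control AAV and an injection of CHX207 fibrosarcoma cells, a mouse sarcoma line, in the right gastrocnemius. A further 5 tumour-bearing mice had FGF21 AAV, a virus that delivers the hormone FGF21. The other 5 had efruxifermin, a long-acting FGF21 analogue, at 2 mg/kg over 6 injections. Tumour cells were given 9 days after the start of treatment, and fat was taken on day 14 after the cells. The labels do not state that the efruxifermin mice also had control AAV, and the mice's age was not given in the sources used here. The study's title sets FGF21 against the metabolic dysfunction of cachexia, the wasting that accompanies cancer.

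Ribosomal protein mRNAs are among the most abundant mRNAs of a cell and are made in step, since each canonical protein is needed once per ribosome, apart from the acidic stalk proteins. In mammals they belong to the TOP mRNAs, which start with a C followed by a run of pyrimidines (C or T). Through that run the mTORC1 kinase pathway controls their translation. Lymphocytes are small cells with a large share of such mRNAs, while mature adipocytes devote more of theirs to lipid metabolism. A few proteins have paralogs that take their place in certain tissues, such as Rpl3l in striated muscle and Rpl39l in testis.

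The annotated start sites differ among the members in the runs of C and T around them, which need not lie at the start itself. Printed here are 30-base windows, 15 bases on each side of the RefSeq transcription start (mouse build GRCm38.p6, from RefSeq), with the longest run of C and T in capitals. The first 4 are canonical genes with a long run, the next 2 are canonical genes that stood out in the comparisons with a short one, and the last 4 are paralogs.
Rps27, chr3:90213634-90213663, minus strand: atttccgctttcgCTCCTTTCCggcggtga
Rps6, chr4:86857353-86857382, minus strand: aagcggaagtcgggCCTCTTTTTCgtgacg
Rplp2, chr7:141447636-141447665, plus strand: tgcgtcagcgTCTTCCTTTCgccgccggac
Rpl38, chr11:114668565-114668594, plus strand: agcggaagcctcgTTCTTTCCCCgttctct
Rps23, chr13:90923107-90923136, plus strand: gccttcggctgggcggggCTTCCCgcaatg
Rpsa, chr9:120127751-120127780, plus strand: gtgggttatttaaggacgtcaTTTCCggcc
Rps27l, chr9:66946071-66946100, plus strand: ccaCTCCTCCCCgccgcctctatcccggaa
Rpl22l1, chr3:28805493-28805522, plus strand: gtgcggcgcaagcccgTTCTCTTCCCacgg
Rpl36al, chr12:69184053-69184082, minus strand: caTTCCCgtcgctcaggttcagttccgact
Rpl3l, chr17:24727811-24727840, plus strand: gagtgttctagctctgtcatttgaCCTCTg

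The run spans 9 bases in Rps27 and 10 in Rps6, Rplp2 and Rpl38, but 6 in Rps23 and 5 in Rpsa, Rpl36al and Rpl3l. The paralogs Rps27l and Rpl22l1 have runs of 9 and 10. The run spans the annotated start in Rps27, Rps6, Rplp2 and Rpl38. It ends before the start in Rps27l and Rpl36al, and begins after it in Rps23, Rpsa, Rpl22l1 and Rpl3l. A run was counted anywhere in the window, so its length does not say whether the mRNA starts with one. Rps27l and Rpl3l have a further start in the table, not printed here. Among 67 starts of the 57 canonical genes in the table, 26 (38.8%) held a run of 8 or more, against 12.0% of 32851 starts of all genes, and the median longest run was 6 against 4 bases. The letters CTTTCC occurred in the sense strand of 13.4% of the canonical windows, 16.7% of the 12 windows of the other members and 1.42% of all windows, and its reverse complement in 0, 0 and 1.27%. In the full 300 bases around the start, CCGGAAG, the core of ETS factor sites, was found on either strand of 37.3% of canonical starts and 8.86% of all starts. A match is a description of the sequence, and annotated starts can miss the base that is used most.

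Members were prominent in every library, and their share of reads was highest in tumour controls and lowest in the treated mice. They took 5.97, 8.13, 7.59 and 4.67% of reads in healthy mice 1 to 4. The 5 tumour controls had 10.97, 10.42, 7.56, 3.44 and 7.45%, which is both the highest and one of the lowest values of all libraries. The share was 6.55, 3.90, 5.21, 5.14 and 3.52% under FGF21 AAV, and 4.24, 4.82, 3.66, 3.28 and 6.21% under efruxifermin. Means were 6.59 ± 1.58% (SD, n = 4), 7.97 ± 3.00%, 4.87 ± 1.20% and 4.44 ± 1.15% (SD, n = 5 each), and all 4 groups overlapped. In bulk tissue, fewer cells of a type with many such mRNAs and less of that RNA per cell cannot be told apart. The mitochondrial ribosome, encoded by 78 other genes, took 0.317 ± 0.00859% of reads in the healthy group (SD, n = 4). Its share was 0.297 ± 0.0152% in tumour controls, 0.266 ± 0.0327% with FGF21 AAV and 0.281 ± 0.0339% with efruxifermin (SD, n = 5 each). Its range between libraries was thus much narrower, in proportion, than that of the cytosolic genes.

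**Figure D1:**
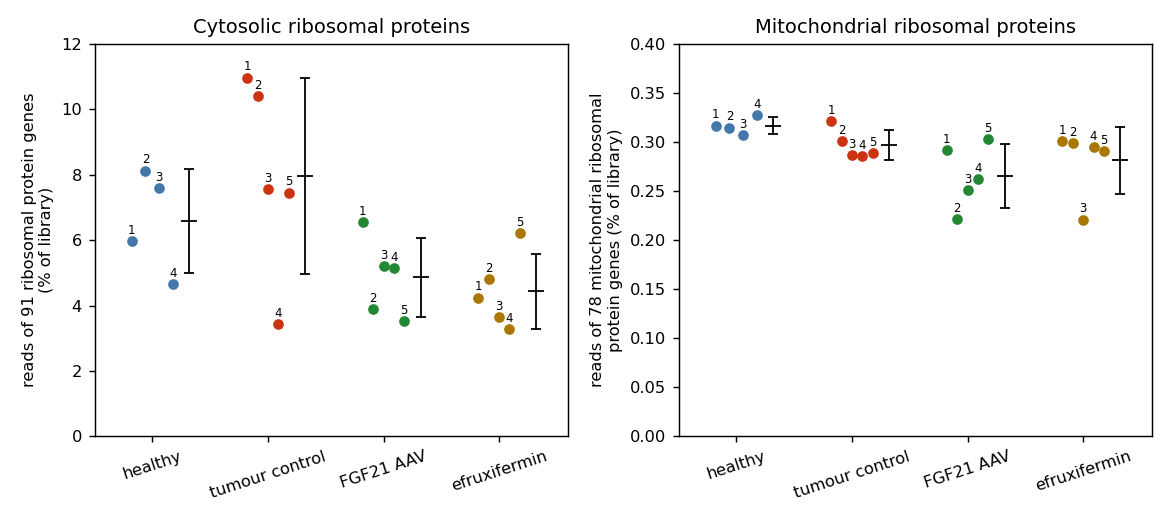
Share of reads in each library (points, numbered by replicate) with the group mean and SD (bars), as % of the library, for the 91 cytosolic and the 78 mitochondrial ribosomal protein genes. The cytosolic share runs from 3.28 to 10.97%, with tumour control 4 far below the other tumour controls, and the mitochondrial share stays between 0.221 and 0.328%.

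Libraries differed in the other tissues they held, also within groups. Recovered depth was 2011067 to 3693864 reads per library. All 12 adipocyte markers were detected in every library. Their summed level was 16116 to 41252 RPM in healthy mice, 2297 to 14997 RPM in tumour controls and 8936 to 42432 RPM in the treated mice. The 13 B cell markers, a cell type of the inguinal lymph node, summed to 17.6 to 2696 RPM in healthy mice, 44.4 to 6124 RPM in tumour controls, 44.8 to 1957 RPM under FGF21 AAV and 28.8 to 2324 RPM under efruxifermin. Up to 10, 10, 10 and 11 of the 13 were at 0 in the poorest library of each group. A B cell score (mean log2(RPM + 1) of these markers) above 3 was found in 2 healthy, 4 tumour control, 2 FGF21 AAV and 3 efruxifermin libraries. Tumour control 4 had a score of 0.681, while the other tumour controls had 7.10 to 8.36, and its Acta1, skeletal muscle actin, was at 25648 RPM. Gm42418, a gene that overlaps ribosomal RNA, took 1.93 to 4.24% of reads in healthy mice and 3.81 to 8.79% in tumour controls. FGF21 AAV libraries 1 to 5 had 2.06, 15.4, 12.0, 8.97 and 8.32%. Efruxifermin libraries had 3.62, 8.81, 17.3, 6.79 and 5.15% in the same order. Efruxifermin 3, the highest, also had muscle markers at 40941 RPM and all 14 T and NK cell markers at 0. Low B cell scores and high muscle markers were not particular to tumour control 4 and efruxifermin 3. Healthy 1 had a B cell score of 0.444 and muscle markers at 48191 RPM. Gm42418 reads enter the RPM total, so a high Gm42418 share lowers the ribosomal protein share of that library. The ribosomal protein share was also taken with Gm42418 and mitochondrial reads left out of the total. Healthy mice then had 5.34 to 8.81% and tumour controls 4.28 to 12.0%. For FGF21 AAV mice the range was 4.32 to 7.22%, while efruxifermin mice had 3.86 to 7.06%, so all groups still overlapped.

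The canonical genes moved as a block from library to library. Tumour controls had the highest group mean in 76 of 77 genes, and both treatments lay below healthy mice in 74. The order tumour control, healthy, FGF21 AAV, efruxifermin held for 51 genes, and efruxifermin had the lowest mean in 53 and FGF21 AAV in 24. Tumour control 1 was the highest of all 19 libraries in 45 genes and tumour control 2 in 29. Tumour control 4 was the lowest of its group in 72 of 77. Since these genes vary together and share libraries, these counts describe one movement and not 77 separate ones. The residual SD within groups had a median of 0.52 on the log2 scale for canonical genes and 0.90 for all genes tested. Rpl6 (0.33) and Rpl41 (0.38) were among the smallest.

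**Figure D2:**
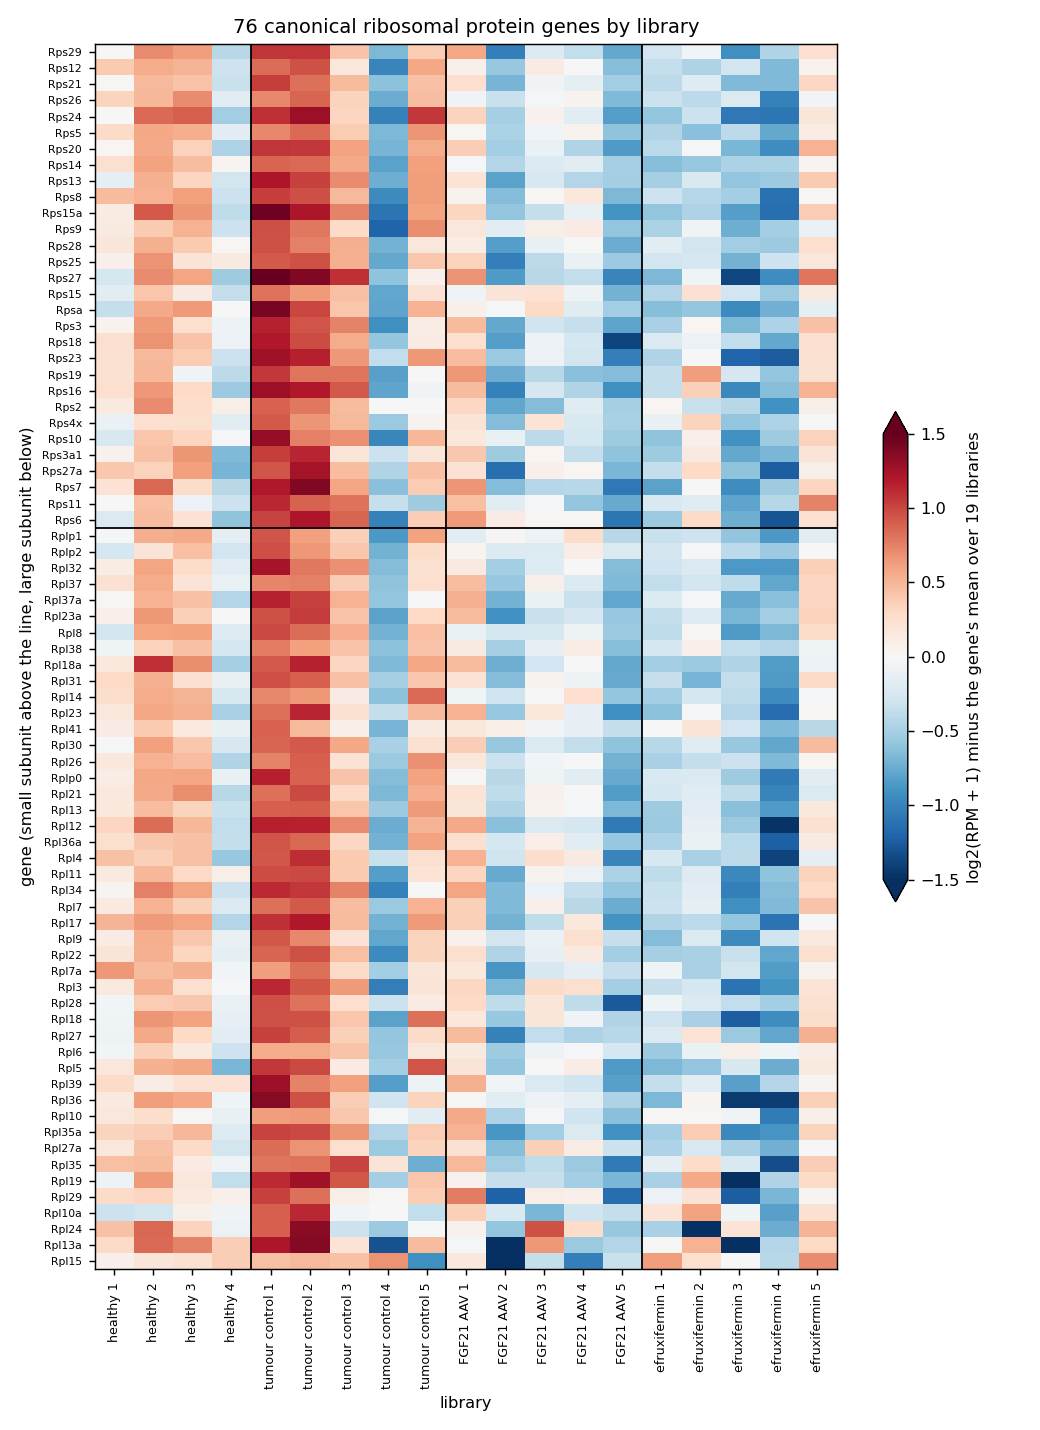
Log2(RPM + 1) of 76 of the 77 canonical genes (rows) in 19 libraries (columns), each minus the gene's mean over all libraries, on a colour scale limited at 1.5 above and below. Columns shade together over nearly all rows: tumour controls 1 and 2 are highest, and tumour control 4, FGF21 AAV 2 and 5 and efruxifermin 3 and 4 are low.

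Stalk and small subunit proteins show the pattern in single genes. Rplp0, the base of the stalk where elongation factors bind, had 765, 1061, 1067 and 657 RPM in healthy mice and 1592, 1304, 950, 451 and 1075 RPM in tumour controls. It had 717, 533, 677, 629 and 419 RPM under FGF21 AAV and 606, 609, 490, 339 and 627 RPM under efruxifermin. All efruxifermin values lay below all healthy values, and 4 of the 5 tumour controls lay above every treated mouse. Rpsa, a small subunit protein also known as a laminin receptor, had 1795, 1339, 894, 387 and 957 RPM in tumour controls and 429, 447, 343, 404 and 605 RPM under efruxifermin. Here tumour control 4 fell inside the efruxifermin range. Rps6, the substrate of the S6 kinases, averaged 66.1 ± 21.2 RPM (SD, n = 4) in healthy mice and 104 ± 47.4, 66.9 ± 25.4 and 52.8 ± 23.8 RPM (SD, n = 5 each) in tumour control, FGF21 AAV and efruxifermin mice.

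Rpl5 and Rpl11, which with 5S RNA form the particle that binds the p53 regulator Mdm2, also had their highest values in tumour controls 1 and 2. Rpl5 had 318, 409, 422 and 175 RPM in healthy mice and 587, 561, 307, 198 and 542 RPM in tumour controls, against 322, 189, 283, 305 and 156 RPM with FGF21 AAV and 176, 187, 239, 168 and 312 RPM with efruxifermin. Rpl11 was at 346 RPM in tumour control 4 and at 804 to 1221 RPM in tumour controls 1 to 3, with 705 RPM in tumour control 5, while efruxifermin libraries held 314 to 774 RPM, a range that includes tumour controls 4 and 5. Rps19, the small subunit gene most often mutated in Diamond-Blackfan anaemia in humans, had 839, 706, 703, 228 and 403 RPM in tumour controls and 315, 624, 339, 266 and 474 RPM with efruxifermin, so its groups overlapped widely. Rps27a, made as a fusion with ubiquitin, ranged from 228 to 740 RPM in tumour controls and from 131 to 384 RPM with efruxifermin. Among canonical genes, Rpl13a (8.77 to 121 RPM) and Rpl24 (7.28 to 121 RPM) varied most between libraries of 1 group, with residual SDs of 0.95 and 0.83. Their low values rest on few reads: Rpl13a had 22 in FGF21 AAV 2 and 25 in efruxifermin 3, and Rpl24 had 22 in efruxifermin 2.

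Tumour controls against healthy mice shows the depot with and without a tumour elsewhere. No member passed the test (limma on log2(RPM + 1), with p adjusted by Benjamini-Hochberg over every gene tested and called under 0.05), where 0.047% of all genes did. At an unadjusted p under 0.05, 0 of 91 were higher or lower, against 0.823 and 7.49% of all genes. The count of members was also 0 by edgeR (0.00588% of all genes lower) and by DESeq2 (0.0176% of all genes higher and 0.212% lower). The log2 difference was above 0 for 79 members, against 38.8% of all genes, with a median of 0.20 beside -0.16 for all genes. Rps27, a zinc-finger protein of the small subunit, had 687, 1353, 1247 and 570 RPM in healthy mice and 2686, 2156, 1757, 544 and 873 RPM in tumour controls. The groups overlapped, and its log2 difference of 0.60 ± 0.46 (SE) did not pass (limma adjusted p = 0.817). The difference of Rpl19, a large subunit protein, was 0.55 ± 0.39 (SE; limma adjusted p = 0.787). The median difference of the 12 adipocyte markers in the same comparison was -1.49, and that of the 13 B cell markers 2.63; their part in the values of the ribosomal genes was not tested by these medians.

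FGF21 AAV against tumour controls asks whether the hormone changes the depot of tumour-bearing mice. Members were lower at the median, by a log2 value of -0.65 beside -0.05 for all genes, and all 77 canonical genes had negative differences, as did 52.8% of all genes. By limma 0 members were called, where 0.564% of all genes were, and 0 by edgeR (0.0411% of all genes higher and 0.00588% lower). At an unadjusted p under 0.05, 45 members were lower, against 7.14% of all genes. Rps27 had 1319, 458, 615, 639 and 415 RPM under FGF21 AAV. Its log2 difference was -1.12 ± 0.43 (SE; limma adjusted p = 0.211), and FGF21 AAV 1, with a B cell score of 6.79, was the high library. Rpl19 was at 120, 90.0, 90.1, 80.1 and 71.1 RPM against 249, 278, 219, 80.1 and 154 RPM in tumour controls. Its 4 high tumour controls lay above every FGF21 AAV library, and tumour control 4 inside their range (log2 -1.01 ± 0.37 SE; limma adjusted p = 0.180). Rps23, a small subunit protein of the decoding centre, gave -0.97 ± 0.34 (SE; limma adjusted p = 0.167).

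The count of calls changed with tumour control 4, the test and the scores. Without that library, limma called 40 members lower, against 3.47% of all genes. Tumour control 4 was the lowest of its group in 72 of 77 canonical genes. Leaving it out widens the difference by itself, so the higher count is no separate support. DESeq2 on all libraries called 20 lower, against 1.09% of all genes. With the B cell and skeletal muscle scores as covariates, the median difference of the members was -0.065 and 0 were called, beside 0.0118% of all genes higher. Among libraries with a B cell score above 3, the mean ribosomal protein share was 9.10% in tumour controls (n = 4), 5.88% under FGF21 AAV (n = 2), 4.77% under efruxifermin (n = 3) and 7.86% in healthy mice (n = 2). Among the others it was 3.44% in the 1 tumour control, 4.19% (n = 3), 3.95% (n = 2) and 5.32% (n = 2) in the same order. The tumour control share was thus the highest of the groups at a score above 3 and the lowest below it, where it is 1 mouse. The libraries above 3 were not matched in their score. Its mean there was 7.82 in tumour controls, 5.63 under FGF21 AAV, 6.01 under efruxifermin and 6.99 in healthy mice.

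Efruxifermin against tumour controls gave the single call. Rpl36al, a paralog of the large subunit protein Rpl36a, had 255, 228, 180, 130 and 151 RPM in tumour controls and 97.6, 104, 42.8, 59.2 and 105 RPM under efruxifermin. Every efruxifermin library lay below every tumour control, tumour control 4 included, which held for 0.582% of all genes. Rpl36al fell to 81.7 ± 28.8 from 189 ± 52.2 RPM (SD, n = 5 each), a fitted fold of 2.36 on the log2(RPM + 1) scale (log2 -1.24 ± 0.27 SE, limma adjusted p = 0.0297). Of all genes, 0.0882% were called lower. The FGF21 AAV libraries, at 128, 113, 112, 84.1 and 103 RPM, also lay below every tumour control, the highest of them just under tumour control 4, without passing the test (log2 -0.77 ± 0.27 SE, limma adjusted p = 0.171). The share of all genes without overlap in that comparison is not given here. The efruxifermin call was lost in the fit of these groups alone (adjusted p = 0.243), in libraries of B cell score 3 or less, where tumour control 4 stands alone (0.664), without the minimum on low values (0.0539), and without tumour control 1 or 2 (0.107 and 0.114) or efruxifermin 1 or 4 (0.0619 and 0.107). The call was also lost when each library was centred on the canonical genes, which takes their shared movement out. It was kept with the B cell and muscle scores as covariates (log2 -1.05, adjusted p = 0.0496), without efruxifermin 3 (log2 -1.03, adjusted p = 0.0306) and within libraries of B cell score above 3 (log2 -1.20, adjusted p = 0.0441). Reads of Rpl36a or of its pseudogenes that align to Rpl36al cannot be told apart in the table, and Rpl36a itself was at 885 ± 328 RPM in tumour controls and 489 ± 156 RPM under efruxifermin (SD, n = 5 each).

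The other members were lower at the median without passing the test. The median over all 91 was -0.75 beside -0.14 for all genes, and 59 were lower at an unadjusted p under 0.05, against 7.35% of all genes. Rps23 had a log2 difference of -1.21 ± 0.34 (SE; limma adjusted p = 0.0940), Rpsa of -1.12 ± 0.31 (0.0969), Rpl36, a large subunit protein, of -1.17 ± 0.33 (0.0990) and Rplp0 of -0.93 ± 0.29 (0.144). Without tumour control 4, limma called 48 members lower, against 1.84% of all genes, Rplp0, Rpsa, Rps23 and Rpl36 among them. That library was the lowest tumour control in 72 of 77 canonical genes, so leaving it out widens the difference by itself. All 25 members that DESeq2 called lower on all libraries, against 0.729% of all genes, were among these 48. Both fits share their mice, so this overlap is no separate support. Within the libraries of B cell score above 3, 11 members were called lower, against 0.670% of all genes. These libraries were not matched, with scores of 7.10 to 8.36 in tumour controls and 4.40 to 6.85 under efruxifermin. All 11 were among the 48, but this set also leaves out tumour control 4, so the overlap is no separate support. With both scores as covariates the median was -0.43, beside -0.04 for all genes, and Rpl36al was the 1 member called; Rpsa was then at -0.80 (adjusted p = 0.169), Rps23 at -0.82 (0.175), Rpl36 at -0.86 (0.195) and Rplp0 at -0.64 (0.341). In the libraries of B cell score 3 or less, which hold 1 tumour control, the median difference was 0.15.

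**Figure D3:**
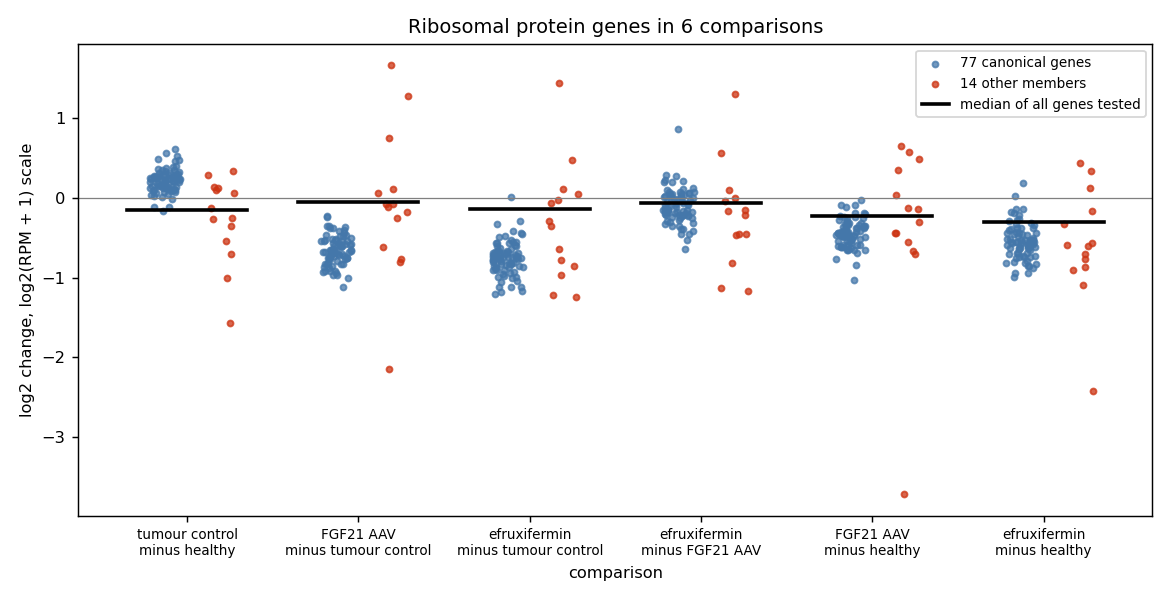
Log2 difference on the log2(RPM + 1) scale of each member (points; 77 canonical genes and 14 others) in the 6 comparisons, with the median of all genes tested as a black bar. The canonical genes lie above the bar for tumour control minus healthy, except Rpl13a, and below it for either treatment minus tumour control, except Rpl15 under efruxifermin; there their medians are -0.66 and -0.76, while the other members scatter to both sides.

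No member passed the test between the treatments. Efruxifermin minus FGF21 AAV had a median of -0.14 over the members, beside -0.07 for all genes, and 0 members were called by limma (0% of all genes), edgeR or DESeq2. A single member, Rpl15, had an unadjusted p under 0.05, where 1.69% of all genes did in its direction. Rpl15, a large subunit protein, had 71.6, 54.6, 46.0, 34.2 and 75.9 RPM under efruxifermin and 51.4, 14.9, 35.6, 22.1 and 36.2 RPM under FGF21 AAV (log2 0.86 ± 0.35 SE, 95% interval 0.13 to 1.58, limma adjusted p = 0.820). Its groups overlapped, and under efruxifermin its mean of 56.4 RPM was close to the 57.9 RPM of tumour controls.

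Against healthy mice, both treatments had lower member values and no call (0.0118% of all genes for FGF21 AAV and 0% for efruxifermin). The tumour controls enter neither difference. The median was -0.44 for FGF21 AAV and -0.56 for efruxifermin, beside -0.22 and -0.30 for all genes, and 5 and 22 members were lower at an unadjusted p under 0.05, against 4.22 and 7.02% of all genes. By edgeR and by DESeq2 0 members were called in either. Rpl36al under efruxifermin lay below all healthy values of 114, 171, 184 and 126 RPM (log2 -0.91 ± 0.29 SE; limma adjusted p = 0.449), and Rpl36 gave -0.94 ± 0.35 (SE; limma adjusted p = 0.523). Under efruxifermin 6 members did not overlap with healthy mice, all lower, where 1.95% of all genes did so: Rplp0, Rplp1, Rps2, Rps14, Rpl39 and Rpl36al, of which Rps2 and Rps14 were named after their values were seen. Under FGF21 AAV it was 1 (Rps14), against 1.73% of all genes.

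The level of these mRNAs rose with the B cell score of a library. In the fit with group and both scores as terms, 42 of 91 members were called with a positive slope on the B cell score and 0 with a negative one, where 5.14% of all genes were called positive. All 42 are canonical, 19 of the small and 23 of the large subunit, and the slope was above 0 for all 77 canonical genes. Their median slope was 0.14 per unit of score beside 0.04 for all genes. Rps27 had the steepest slope of the called members, 0.245 ± 0.0460 (SE; limma adjusted p = 6.99e-04), followed among the smallest p by Rps24, a small subunit protein mutated in Diamond-Blackfan anaemia in humans, with 0.218 ± 0.0443 (0.00181), and Rps29 with 0.199 ± 0.0409 (0.00200). Of the mitochondrial ribosomal protein genes 0 of 77 were called (3 of 77 at an unadjusted p under 0.05; by limma). The count of called members fell to between 10 and 27 under another scaling, filter or count test, always positive. The share of all genes called under those settings is not given here.

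**Figure D4:**
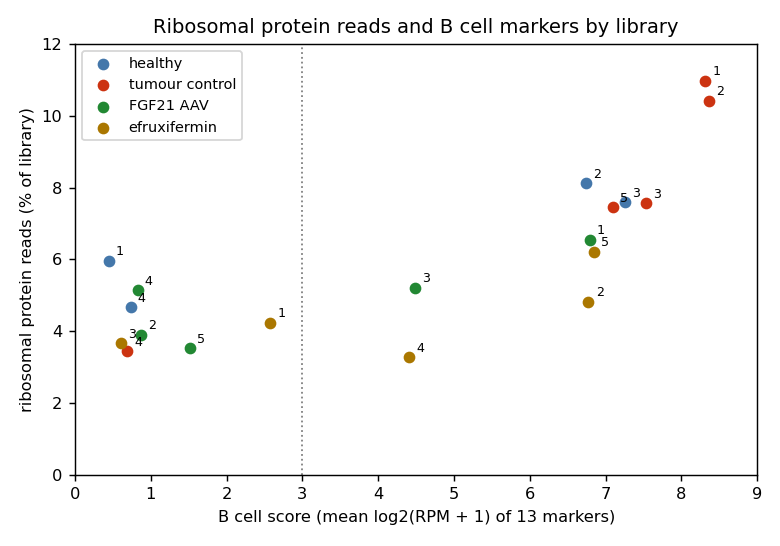
Ribosomal protein reads (% of library) against the B cell score of each of 19 libraries, coloured by group and numbered by replicate, with a dotted line at a score of 3. Tumour controls 1, 2, 3 and 5 have scores above 7 and shares of 7.45 to 10.97%, while efruxifermin 2 and 5 and FGF21 AAV 1, with scores above 6, have 4.82, 6.21 and 6.55%.

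The small and large subunits moved in near proportion. The summed RPM of small subunit genes over that of large subunit genes averaged 0.960 ± 0.0319 (SD, n = 4) in healthy mice and 0.988 ± 0.0596, 0.904 ± 0.0426 and 0.952 ± 0.0485 (SD, n = 5 each) in tumour control, FGF21 AAV and efruxifermin mice. In tumour control 4 it was 0.882, below the 1.00 to 1.03 of the other tumour controls. FGF21 AAV 2 and 4 were lower still, at 0.861 and 0.873.

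The 14 non-canonical members were more scattered. Rps4l, a paralog of the small subunit gene Rps4x, went the other way: 12.3, 12.6, 3.24 and 20.5 RPM in healthy mice, 3.80, 2.27, 9.12, 8.66 and 2.73 RPM in tumour controls, 25.9, 8.45, 11.9, 21.2 and 23.5 RPM under FGF21 AAV, and 5.94, 18.2, 7.72, 32.3 and 20.6 RPM under efruxifermin. Tumour controls were low and treated mice higher, with overlap in both. The log2 difference from tumour controls was 1.66 ± 0.58 (SE; limma adjusted p = 0.171) for FGF21 AAV and 1.44 ± 0.58 (SE; limma adjusted p = 0.272) for efruxifermin. Tumour controls minus healthy gave -1.01 ± 0.62 (SE; limma adjusted p = 0.740). Each library was also centred on the canonical genes, to see which members depart from them. Since these were lower in treated mice, centring raises every gene's difference from tumour controls. Rps4l was then called higher under efruxifermin (log2 2.29 ± 0.68 SE, limma adjusted p = 0.0358), as were 9.95% of all genes. It was not called under FGF21 AAV (log2 2.28 ± 0.68 SE, limma adjusted p = 0.0556), where 3.61% of all genes were called higher. The call is thus not particular to Rps4l, which had 6 to 32 reads in tumour controls. Rps4x had 435 ± 157 RPM in tumour controls and 302 ± 78.4 RPM under efruxifermin (SD, n = 5 each).

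Rps27l, the paralog of Rps27 that p53 is known to induce, had a difference of the other sign from its partner. Rps27l had 62.2, 110, 50.5, 110 and 33.9 RPM in tumour controls and 93.8, 89.7, 105, 64.9 and 119 RPM under efruxifermin (log2 0.47 ± 0.32 SE, 95% interval -0.20 to 1.14, limma adjusted p = 0.528). Rps27 in the same comparison gave -1.18 ± 0.43 (SE; limma adjusted p = 0.219); the gap between the paralogs was not tested. Rpl22l1, the paralog of Rpl22, stayed with the block: 178 ± 30.1 RPM (SD, n = 4) in healthy mice and 193 ± 66.3, 126 ± 47.7 and 115 ± 46.4 RPM (SD, n = 5 each) in tumour control, FGF21 AAV and efruxifermin mice. Rpl7l1, a relative of Rpl7 with a part in ribosome assembly, averaged 57.5 ± 22.5, 58.9 ± 12.5 and 45.7 ± 22.0 RPM (SD, n = 5 each) in the same 3 groups. Its healthy mean was higher, at 67.3 RPM (n = 4). Tumour control minus healthy was thus below 0 for Rpl7l1 (log2 -0.25 ± 0.37 SE, limma adjusted p = 0.935).

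Rpl3l, the striated-muscle form of Rpl3, had the largest residual SD of the members (2.42 on the log2 scale) and marked libraries rather than groups. It was at 115, 2.60, 19.8 and 18.3 RPM in healthy mice and 4.75, 0, 0, 179 and 13.3 RPM in tumour controls. In 4 of 5 FGF21 AAV libraries and 3 of 5 efruxifermin libraries it was at 0, the others being 7.79, 16.3 and 43.8 RPM. Rpl3l was the only member called on the skeletal muscle score (0.51 ± 0.12 log2 per unit, SE, limma adjusted p = 0.0327, where 0.435% of all genes were called). The call was lost with a pseudocount of 0.25, without the filter, by DESeq2 and with the replicate block. FGF21 AAV minus healthy was -3.71 ± 1.39 (SE; limma adjusted p = 0.907). Muscle markers summed to 14.3 to 2973 RPM under FGF21 AAV and 523 to 48191 RPM in healthy mice. Rpl39l, the testis form of Rpl39, was at 0 in 8 of 19 libraries and at most 12.9 RPM. The remaining copies were low throughout: Rpl6l reached at most 3.98 RPM and was at 0 in 12 of 19 libraries, Rps3a3 reached 3.52 RPM, Rps27rt 8.32 RPM, Rps3a2 21.9 RPM, Rpl37rt 24.3 RPM and Rpl32l 24.7 RPM. Rps19bp1 was at 17.8 to 54.0 RPM in all libraries.

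**Figure D5:**
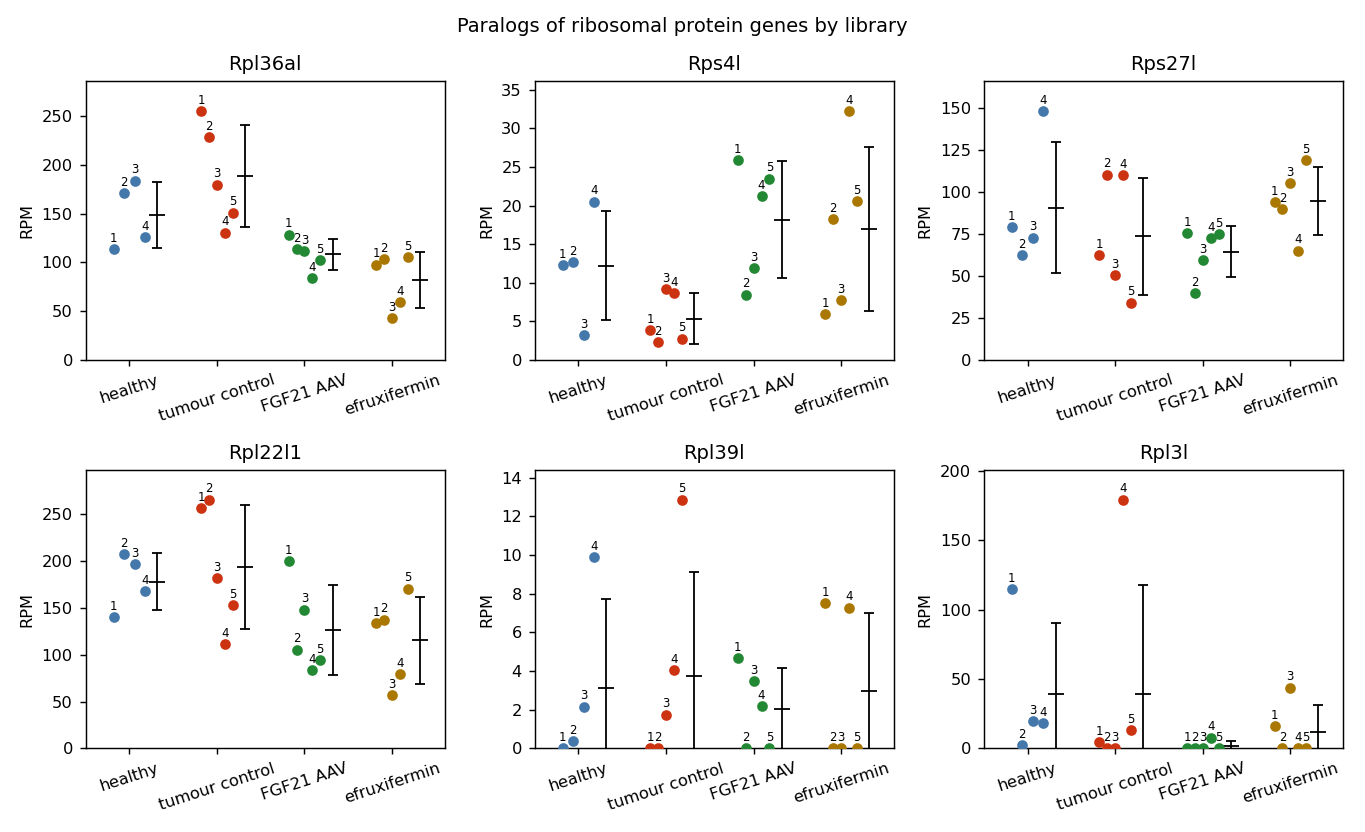
RPM of 6 paralogs in each library (points numbered by replicate) with the group mean and SD (bars, cut at 0). Efruxifermin libraries lie below all tumour controls for Rpl36al, tumour controls are low for Rps4l, and Rpl3l is high in healthy 1 and tumour control 4.

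Other genes of the translation pathway were read beside the members. Of 20 further TOP genes (elongation and initiation factors and companions), the median difference from tumour controls was -0.52 under FGF21 AAV and -0.69 under efruxifermin. Eef1g, a subunit of the elongation factor that reloads eEF1A, fell under FGF21 AAV (log2 -1.15 ± 0.26 SE, limma adjusted p = 0.0460), where 0.564% of all genes were called, and 0 of 20 were called under efruxifermin (12 lower at an unadjusted p under 0.05, where 7.35% of all genes were). On the B cell score 4 of 20 were called, all positive, among them Rack1, a scaffold protein of the small subunit, Eef1b2 and Eif3e. Of 46 ribosome biogenesis genes 0 were called in either comparison (4 lower at an unadjusted p under 0.05 in each, near the 7.14 and 7.35% of all genes), with medians of -0.53 and -0.43.

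Of 24 genes of the mTORC1 pathway 0 were called, with medians of -0.06 under FGF21 AAV and -0.01 under efruxifermin. Those with the smallest p were Castor1, an arginine sensor that restrains mTORC1 (log2 2.75 ± 0.67 SE under FGF21 AAV, limma adjusted p = 0.0556), Deptor, an inhibitor of the kinase (1.15 ± 0.33 and 1.18 ± 0.33, adjusted p = 0.101 and 0.0991), and Eif4ebp1, the translation repressor 4E-BP1 (1.25 ± 0.41 under efruxifermin, adjusted p = 0.165). Of 77 mitochondrial ribosomal protein genes tested, 1 rose under efruxifermin and 0 fell: Mrps6, of the mitochondrial small subunit (log2 1.61 ± 0.28 SE, limma adjusted p = 0.0108; 0.676% of all genes rose). Their median was -0.22 under FGF21 AAV and -0.19 under efruxifermin.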

How the data were processed

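The authors deposited 1 table of RPM (reads scaled to library size, per the labels) for 19 libraries of the QuantSeq 3' kit. Per the submitters' processing notes they used FastQC, cutadapt, HISAT2 and HTSeq with GRCm39; versions, strand setting and treatment of multiply aligned reads are not given in the sources used here, so near-identical copies (Rps27 and Rps27rt, Rps3a1, Rps3a2 and Rps3a3, Rpl36a and Rpl36al) are uncertain. Values of up to 1000 reads were whole multiples of 1 read (100% within 0.05 in 19 of 19 libraries). Larger values, which many canonical genes have, were not checked for this. Libraries held 2011067 to 3693864 reads, and no 2 libraries of 1 group were duplicates. Intervals cover the spread between mice.

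Genes with 1 RPM or more in at least 4 libraries were fitted with limma 3.58.1 (trend) in R 4.3.3 on log2(RPM + 1), 4 groups in 1 fit, two-sided, Benjamini-Hochberg over 17013 genes. Fold changes on this scale understate low genes. Slopes came from a fit with group, B cell and muscle scores. Alternatives used edgeR 4.0.16 and DESeq2 1.42.0 on recovered reads, other scalings, filters, pseudocounts and covariates, and left out each library. The steps were tested on simulated data. Members and lists were chosen with earlier results of these data known; so were the score of 3 and the centring on canonical genes. Genes named are the member pairs and special forms, the 4 largest rises and falls, called members and extremes of residual SD; others are said to be so. Where groups share controls, values stand side by side only. Promoter windows are from RefSeq (GRCm38.p6; 67 of 91 members matched). Rps24 and Rps29 are named as the smallest p on the score. Figures used matplotlib 3.10.9. Some values of single genes are not reported here.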

Additional observations from a re-analysis of the deposited data

Results flagged for a closer look

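A gap test for 1 sample far from the others in its group (Dixon's test) was run on 56 sets of values, and chance alone gives about 1 in 20. It marked 7. In efruxifermin 3 the mitochondrial ribosomal protein share was 0.221%, below the 0.291 to 0.301% of the other efruxifermin mice; this library also had a Gm42418 share of 17.3%. In tumour control 4 the ratio of small to large subunit reads was 0.882, and the other tumour controls had 1.00 to 1.03. This ratio was far only from its own group, since FGF21 AAV 2 and 4 had 0.861 and 0.873. Rpl15 was at 23.8 RPM in tumour control 5 and at 62.8 to 74.2 RPM in the others. Rps27 was at 1319 RPM in FGF21 AAV 1 and at 415 to 639 RPM in the others of its group; the B cell score of that library, 6.79, was the highest of its group.

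The other 3 sets are all of Rpl3l, the muscle paralog. It was at 115 RPM in healthy 1 (2.60 to 19.8 in the others), 179 RPM in tumour control 4 (0 to 13.3) and 7.79 RPM in FGF21 AAV 4 (0 in the others). The skeletal muscle scores of these libraries, 11.2, 12.1 and 7.08, were the highest of their groups. With all others of its group at 0, any value above 0 in FGF21 AAV 4 would be marked. That mark was fixed in advance, and the rate of 1 in 20 does not hold for it.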

How the results depend on the processing

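For efruxifermin against tumour controls, 1 member was called as reported. The count was 25 by DESeq2, 4 with median-of-ratios factors, 3 with TMM factors, 11 in libraries of B cell score above 3, and 0 in libraries of score 3 or less (1 tumour control, so this says nothing of the members), without the filter, and in the fit of the 2 groups alone. It ranged from 0 to 48 when single libraries were left out, 48 being without tumour control 4. Of all genes, 0.729% were called lower by DESeq2, 0.670% at a score above 3 and 1.84% without tumour control 4. The shares of all genes under the other settings are not given here. Centred on the canonical genes, the 1 call was Rps4l and higher, where 9.95% of all genes were called higher. For FGF21 AAV against tumour controls the count was 20 by DESeq2 and 0 to 40 with a library left out, 40 being without tumour control 4. Of all genes, 1.09% were called lower by DESeq2 and 3.47% without tumour control 4. In both comparisons the rise in calls without tumour control 4 follows from its low member values and is no separate support.

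The count of members with a slope on the B cell score was 42 as reported, 27 without the filter, 23 by DESeq2, 22 with the replicate block, 20 with totals less the 50 most abundant genes, 18 with TMM, 11 by edgeR and 10 with median-of-ratios factors, and 17 to 51 with a library left out. The share of all genes called was 5.14% as reported and is not given here for the other settings. These counts therefore do not say whether the members or all genes changed. The 1 call on the muscle score became 0 with a pseudocount of 0.25, without the filter, by DESeq2 and with the replicate block, and 0 to 1 with a library left out.

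The median difference of the members moved to -0.065 for FGF21 AAV against tumour controls with both scores as covariates. In libraries of B cell score 3 or less, with 1 tumour control assumed to vary like the others, it was -0.52 for tumour controls against healthy, 0.19 for FGF21 AAV and 0.15 for efruxifermin against tumour controls. There the log2 differences of Rps27 and Rpl19 (tumour control against healthy) were -0.20 and -0.29, and those of Rplp0, Rps27l and Rps4l (efruxifermin against tumour control) 0.27, -0.14 and -0.31. The cause was not tested. Of the named genes' other alternatives 498 kept direction and side of the threshold, 24 passed it and 7 no longer did.

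Same-numbered libraries did not pair: of 27 pairs 8 deviated together (r above 0.1; median -0.0199), and of 108 pairs of other numbers 24 did (median -0.00839). With the replicate block, the efruxifermin call of Rpl36al stayed (adjusted p = 0.0257), and the other 5 comparisons of groups had 0 members called. Depth limits Rpl39l and the extra copies, which were near 0 in several libraries.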
